A study of Xenopus laevis with 4 samples.

Results

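The genes described here encode the proton pump, other ion pumps and carbonic anhydrases, the machinery by which ionocytes of the frog epidermis move acid and salts. They were taken from an expression study of presumptive ectoderm of Xenopus laevis, and chosen by their annotated gene symbols: V-ATPase subunits and accessory proteins (atp6), Na,K-ATPase subunits (atp1a and atp1b), calcium pumps (atp2a, atp2b and atp2c), H,K-ATPase subunits (atp4a and atp4b), numbered carbonic anhydrases (ca) and the ionocyte transcription factor gene ubp1. The rule found 71 of the 32539 probe sets, for 50 of 11303 gene symbols, and 58 of the 71, for 41 symbols, passed the filter on low signals. None of the probe sets carried an atp1a symbol, so the catalytic subunit of the Na,K-ATPase was not analysed here.

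Expression was read on 4 one-colour Affymetrix arrays, 2 per group. The first group came from embryos given synthetic mRNA for ICD together with mRNA for MCI-HGR, and the second from embryos given ICD mRNA alone; both injections were made at the 2-cell stage. In this field ICD is the usual name of the intracellular domain of Notch, and HGR that of the glucocorticoid receptor's hormone-binding domain, which keeps a fused protein, here multicilin, inactive until dexamethasone is given. The ectoderm was explanted at stage 9 to 10, dexamethasone was added to both groups at stage 11.5, and explants were harvested 5 h later, near stage 14. All explants thus carried ICD and received dexamethasone, injected mRNA reaches many cell types, and the sources used here do not say how many embryos were pooled for an array.

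The V-ATPase is a rotary pump: its peripheral V1 sector splits ATP and its membrane sector V0 carries protons across the membrane. Most cells use it to acidify endosomes and lysosomes, and ionocytes also place it on the plasma membrane, where it works beside carbonic anhydrases, which turn carbon dioxide and water into bicarbonate and protons. In the embryonic frog epidermis, ionocytes and multiciliated cells arise from the inner layer under the control of Notch; foxi1 and ubp1 are known as regulators of the ionocyte fate, and high Notch activity keeps cells from both fates. The comparison with these genes asked whether the ion transport machinery moved when multicilin was made active in Notch-activated ectoderm.

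Values are MAS5 signals on a linear scale, and a pair of values is given in the order of the replicate numbers 1 and 2; folds between groups are taken from means of log2 signals. An array's background was taken as its highest signal among 17 tag control probe sets, which lay between 9.2 and 13.0; 53 of the 71 probe sets lay above it on all 4 arrays and 9 on none. The middle-to-3' ratio of the actin control, a measure of RNA integrity, was 0.569 and 0.401 on the ICD and MCI-HGR arrays and 0.640 and 0.652 on the ICD arrays, so it was lower with MCI-HGR in both numbers; its part in the results was not tested. Of the multiciliated cell markers, which include mcidas itself, 10 of 10 gene symbols were higher with MCI-HGR in both numbers, with a summed signal of 14971.5 and 10673.6 against 900.8 and 1007.1 on the ICD arrays. The 8 ionocyte markers include ubp1, atp6v1a, atp6v0d1 and ca12 and were read as 10 symbols. They summed to 1213.7 and 1307.4 with MCI-HGR and to 1063.5 and 1139.6 with ICD alone, of which atp6v1a.L and atp6v0d1.L made up the most. In both numbers 6 of the 10 symbols were higher and 1 was lower. Of all probe sets tested, 29.2% were higher in both numbers and 31.7% were lower. Those shares are not on the same footing, since each symbol was read by its brightest probe set. Also, slc26a4.3.L and dmrt2.L did not pass the filter on low signals. Whether the ionocyte markers leaned higher thus cannot be told from these counts. ubp1.L was among the 6, but its other probe set was lower in both numbers. The median log2 difference of the 10 symbols was 0.33. Among the 6 were slc26a4.1.L, slc26a4.3.L and slc26a4.3.S, and neither slc26a4.3 copy was above background on an ICD array. In this list 7 symbols were above background on all arrays, and dmrt2.L was below background on all arrays. In bulk explants, fewer cells of a type and less RNA per cell cannot be told apart.

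Within each replicate number, 33 of the 58 probe sets (56.9%) differed between the groups by less than 1.25-fold, near the 48.2% of all 24404 probe sets tested. The share was 12 of 20 among V1 and 9 of 12 among V0 probe sets, and 2 of 7 among those of the Na,K-ATPase and 1 of 4 among those of the carbonic anhydrases. With the replicate number kept as a block, the ionocyte regulator gene ubp1.L rose in its brighter probe set, 2.54-fold by the group means. The V0 subunit gene atp6v0e1.S also rose, 1.46-fold. No V1 subunit, accessory protein, Na,K-ATPase beta subunit, calcium pump or carbonic anhydrase gene passed in that fit. The other tested ubp1.L probe set was lower in both numbers, and the atp6v0e1.S call was lost after quantile normalization.

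By limma without a block, 0 of the 58 passed an adjusted p of 0.05, as did 0 of all probe sets in either direction (a background of 0%). At an unadjusted p of 0.05, 1 of the 58 was higher and 0 were lower, against 2.92% and 0.508% of all probe sets, and with the block these were 6 and 3 of the 58, against 8.78% and 7.94%. With the block, which compares the groups within each replicate number, 2 of the 58 rose (3.45%) and 0 fell, where 4.68% of all probe sets rose and 2.26% fell. Rose and fell are used below for probe sets that passed with the block. Both calls ended when the spread was estimated without an intensity trend, where 0 probe sets of the whole array passed. When each gene was represented by its brightest probe set, 4 of 41 passed with the block: ubp1.L, atp6v0e1.S and the calcium pump gene atp2c2.S higher and the V1 gene atp6v1al.L lower; over the 9380 genes tested that way, 6.72% were higher and 3.32% were lower.

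The directions of the 58 probe sets were set beside those of the array as a whole. In both numbers 22 were higher with MCI-HGR (37.9%, background 29.2%) and 16 were lower (27.6%, background 31.7%), and 20 went opposite ways. The arrays of the groups did not overlap for 7 that were higher (12.1%, background 11.5%) and 6 that were lower (10.3%, background 11.8%). Their median log2 difference was 0.034, with -0.022 in number 1 and 0.080 in number 2, and the median of all probe sets tested was -0.015. That small median took either sign as arrays were left out: it was -0.060 without the ICD and MCI-HGR array of number 1 and 0.10 without that of number 2, and it was 0.13 without the ICD array of number 1 and -0.12 without that of number 2. With the brightest probe set of each of the 41 genes, 20 were higher in both numbers (48.8%) and 8 were lower (19.5%). The groups did not overlap for 6 that were higher (14.6%) and 1 that was lower (2.44%), and the median was 0.081. These shares were not computed over all genes read by their brightest probe set, so whether the members leaned higher cannot be told from them.

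**Figure D1:**
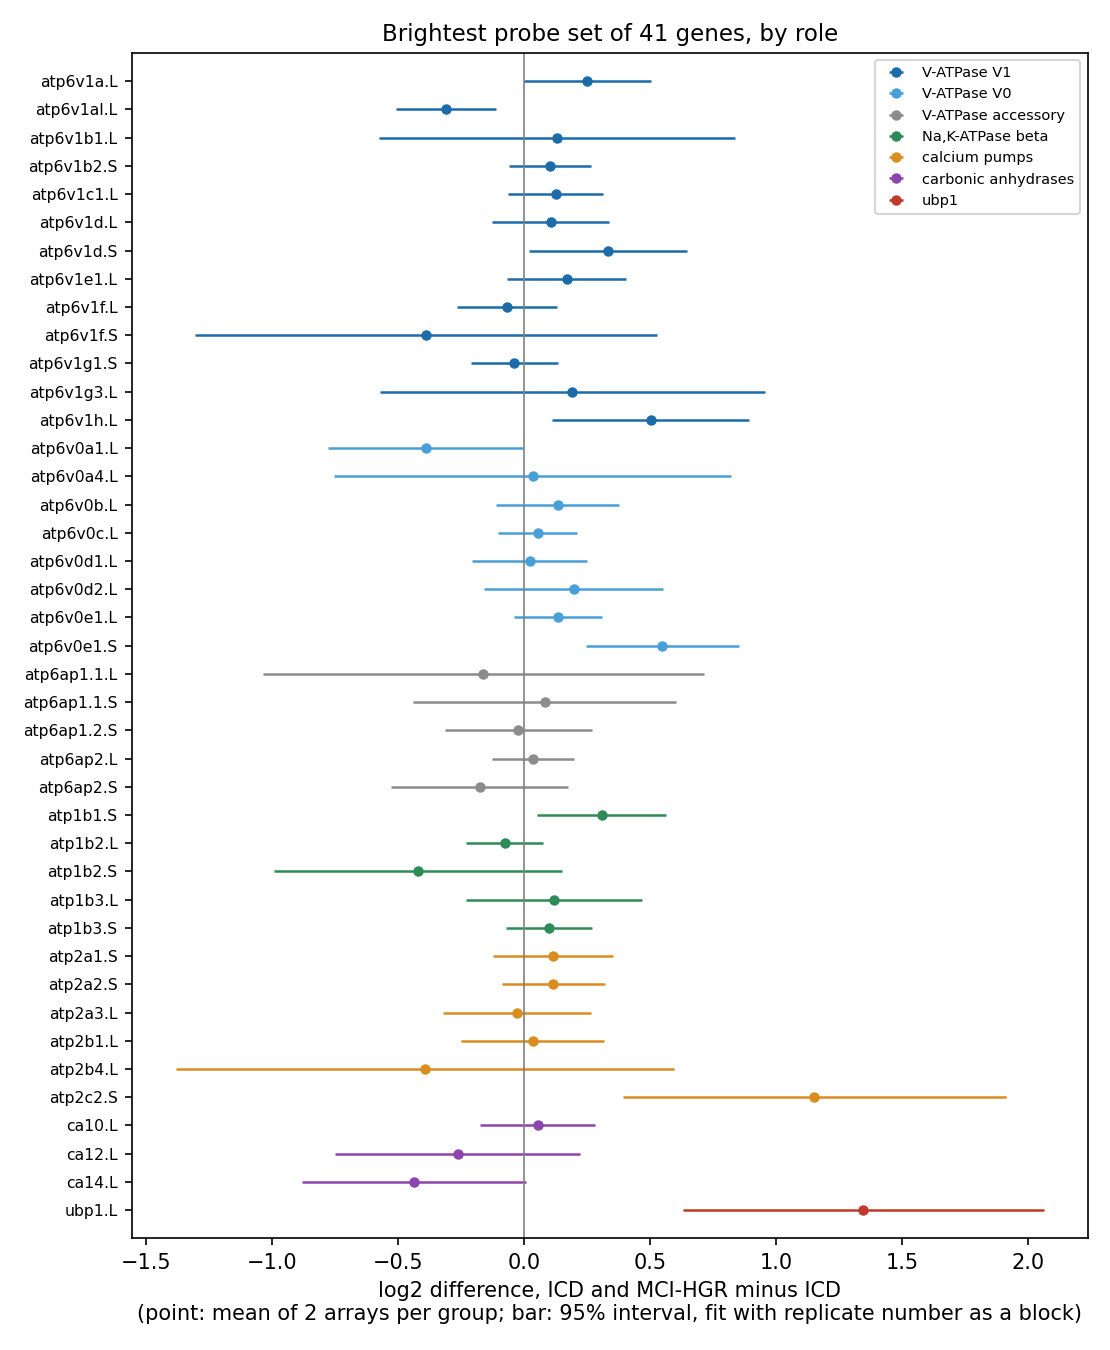
The log2 difference (ICD and MCI-HGR minus ICD) of the brightest tested probe set of 41 genes, grouped by role from V1 subunits at the top to ubp1 at the bottom. Points are differences of the means of 2 arrays per group and bars are 95% intervals of the blocked fit; ubp1.L at 1.35 and atp2c2.S at 1.15 stand farthest to the right, and most other points lie near 0.

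ubp1 belongs to the grainyhead-related family of transcription factors. Its brighter probe set (ubp1.L, Xl2.22874.1.A1_a_at) read 46.7 and 26.4 on the ICD and MCI-HGR arrays, against 13.7 and 13.9 on the ICD arrays. Both arrays with MCI-HGR were higher than both without it, and the ICD signals exceeded the backgrounds of their arrays, 13.0 and 10.0, by little. It rose 3.41-fold in number 1 and 1.90-fold in number 2, with a 95% interval of 1.55 to 4.18-fold for the mean (limma, adjusted p = 0.0204 with the block and 1 without it). Over the other settings of the blocked fit in which it was tested, the adjusted p ran from 0.00484 to 0.251. The other ubp1.L probe set (Xl2.22874.2.S1_at) went the opposite way, at 10.6 and 8.6 with MCI-HGR against 16.4 and 11.3 with ICD alone. Neither of its values with MCI-HGR was above background, and with these raised to background it was 1.28-fold lower. The 95% interval of its fold in the blocked fit, from 0.374 to 1.32, included no change (limma, adjusted p = 0.639 with the block). The readings of the gene thus differed in sign, and the rise rests on 1 probe set.

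**Figure D2:**
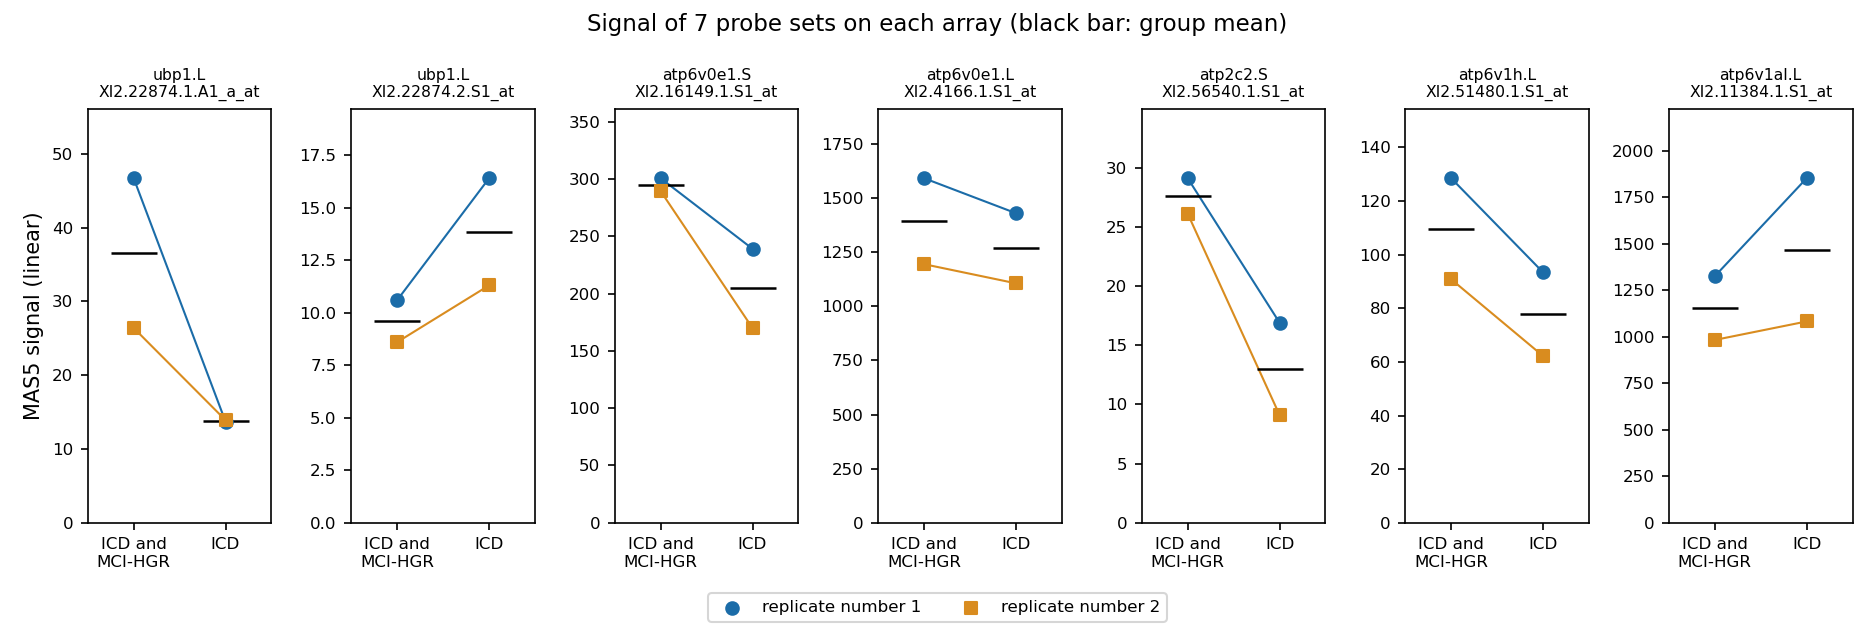
MAS5 signal (linear axis from 0) of 7 probe sets on each of the 4 arrays, with the ICD and MCI-HGR arrays at left and the ICD arrays at right in each panel, lines joining arrays of one replicate number and black bars at the group means of the linear signals. The ubp1.L panels slope in opposite directions, and for atp6v0e1.S the signals with MCI-HGR, 300.7 and 289.4, both lie above 239.1 and 169.9 with ICD alone.

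In the V1 sector, 20 of 21 probe sets, for 13 symbols, were tested; 0 rose and 0 fell. Their median log2 difference was 0.10, with 0.014 in number 1 and 0.17 in number 2. For 15 of the 20 the 95% interval of the blocked fit lay within 1.5-fold of no change in either direction. The same held for 38 of the 58 members and for 10943 of all 24404 probe sets tested. With an intensity trend, the width of an interval depends on signal, and the members were brighter. In the brighter 50% of probe sets lay 45 of the 58 members and 16270 of the 24404. These counts therefore do not show that the pump genes were steadier than others. Subunit B, which shares the nucleotide sites with the catalytic subunit A, is encoded by atp6v1b2.S among others. Its probe set of highest signal (Xl2.8880.1.S1_a_at) read 2061.4 and 2032.0 with MCI-HGR against 2019.4 and 1800.3 with ICD alone. Its log2 difference was 0.10 ± 0.16 (SE, n = 2 per group; limma, adjusted p = 0.584 with the block). Here and below, each SE is that of the fit without the block, also where the p-value beside it is from the blocked fit. The catalytic subunit gene atp6v1a.L had 368.7 and 556.8 with MCI-HGR and 344.3 and 421.4 with ICD alone in its brighter probe set (Xl2.47045.1.S1_at), 1.19-fold higher with groups that overlapped (limma, adjusted p = 0.302 with the block).

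Subunit H is a regulatory subunit of V1. Its gene atp6v1h.L (Xl2.51480.1.S1_at) read 128.5 and 90.8 with MCI-HGR against 93.4 and 62.2 with ICD alone. It was 1.38-fold higher in number 1 and 1.46-fold in number 2, but the groups overlapped, since the number 1 array of ICD alone lay above the number 2 array with MCI-HGR. The log2 difference was 0.50 ± 0.37 (SE, n = 2 per group) and did not pass (limma, adjusted p = 0.142 with the block and 1 without). The gene annotated as atp6v1al.L (Xl2.11384.1.S1_at) had 1324.8 and 982.5 with MCI-HGR and 1851.7 and 1082.0 with ICD alone. It was 1.40-fold lower in number 1 and 1.10-fold lower in number 2, and did not pass over all probe sets (limma, adjusted p = 0.0581 with the block), though it did with 1 probe set per gene (adjusted p = 0.0180) and after quantile normalization (adjusted p = 0.0391).

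None of the stalk subunit genes named here passed with the block. atp6v1c1.L (Xl2.26748.1.S1_at), of the subunit that governs assembly of V1 with V0, had 991.1 and 1032.5 with MCI-HGR against 935.9 and 919.6 with ICD alone, groups that did not overlap at a 1.09-fold difference. Both homeologs of the rotor stalk gene atp6v1d, the .L and .S copies that this allotetraploid frog carries, were 1.08-fold and 1.26-fold higher, and neither passed (limma, adjusted p = 0.726 and 0.257 with the block). For the peripheral stalk, atp6v1e1.L (Xl2.6567.1.S2_at) read 546.0 and 574.0 with MCI-HGR and 539.7 and 459.4 with ICD alone, and atp6v1g1.S (Xl2.43120.2.S1_a_at) read 1562.4 and 1101.1 with MCI-HGR and 1613.7 and 1125.1 with ICD alone. These genes were named after their values were seen.

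The V0 sector gave 12 tested of 13 probe sets, for 8 of 9 symbols. Of these 1 rose and 0 fell, and the median log2 difference was 0.029. The subunit e gene atp6v0e1.S (Xl2.16149.1.S1_at), which encodes a small membrane protein of the proton channel sector, read 300.7 and 289.4 with MCI-HGR against 239.1 and 169.9 with ICD alone. It rose 1.26-fold in number 1 and 1.70-fold in number 2, with a 95% interval of 1.19 to 1.81-fold for the mean (limma, adjusted p = 0.0254 with the block and 1 without it). The call was lost after quantile normalization with the block (adjusted p = 0.0548), and over the other settings of the blocked fit the adjusted p ran from 0.00573 to 0.366. Its homeolog atp6v0e1.L (Xl2.4166.1.S1_at) had 1592.0 and 1194.8 with MCI-HGR and 1430.4 and 1106.4 with ICD alone, with overlapping groups and no call (limma, adjusted p = 0.482 with the block).

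The ring that carries protons is built of subunit c, encoded by atp6v0c, and the related atp6v0b product. The brightest atp6v0c.L probe set (Xl2.8573.1.S1_a_at) read 2295.7 and 1752.9 with MCI-HGR against 2259.1 and 1654.2 with ICD alone, a log2 difference of 0.053 ± 0.24 (SE, n = 2 per group). Its other probe sets had log2 differences of -0.042 and -0.16, and none passed. atp6v0b.L (Xl2.46588.2.S1_at) had 541.8 and 371.5 with MCI-HGR and 537.0 and 311.5 with ICD alone. Subunit d, which joins the ring to the central stalk, was read by both atp6v0d1.L probe sets: Xl2.8263.1.S2_at had a log2 difference of 0.022, and Xl2.8263.1.S1_at, at 73.5 and 72.5 with MCI-HGR against 93.7 and 86.4 with ICD alone, one of -0.30. The groups did not overlap for the second, which did not pass (limma, adjusted p = 0.497 with the block). Subunit a lines the path of the protons, and atp6v0a1.L (Xl2.4419.1.S1_at) read 56.8 and 114.5 with MCI-HGR and 75.9 and 147.4 with ICD alone, 1.34-fold lower in number 1 and 1.29-fold lower in number 2 (limma, adjusted p = 0.294 with the block).

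In mammals, a few V-ATPase isoforms are concentrated in acid-secreting cells such as the intercalated cells of the kidney: subunits B1, G3, a4 and d2. The frog genes of these names had low signals here, apart from atp6v0d2.L, and none passed. atp6v1b1.L (Xl2.15867.1.A1_at) read 26.8 and 17.9 with MCI-HGR and 21.1 and 19.0 with ICD alone, and its second probe set was removed by the filter. atp6v1g3.L (Xl2.34612.1.S1_at) had 25.6 and 14.7 with MCI-HGR and 17.6 and 16.4 with ICD alone. For atp6v0a4.L (Xl2.2715.1.S1_at) the values were 19.5 and 13.0 with MCI-HGR and 18.3 and 13.2 with ICD alone. All 3 had wide 95% intervals of the fold in the blocked fit, from 0.671 to 1.78, from 0.673 to 1.94 and from 0.593 to 1.77 in that order of genes. atp6v0d2.L (Xl2.8939.1.S1_at) read 187.3 and 91.0 with MCI-HGR against 176.4 and 73.6 with ICD alone, a difference of 1.06-fold in number 1 and 1.24-fold in number 2 beside a much larger one between the numbers.

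Of the accessory proteins, which help the pump assemble and reach its membranes, 5 of 6 probe sets were tested, 0 passed, and the median log2 difference was -0.024. atp6ap2.L (Xl2.6475.1.S1_at), also known as the prorenin receptor gene, read 1941.2 and 1694.7 with MCI-HGR and 1938.3 and 1613.5 with ICD alone, a log2 difference of 0.036 ± 0.18 (SE, n = 2 per group; limma, adjusted p = 0.886 with the block). The sign of this small difference turned with quantile normalization and when some arrays were left out. Its homeolog atp6ap2.S (Xl2.26301.1.S1_at) had 245.0 and 92.5 with MCI-HGR and 230.8 and 125.5 with ICD alone, higher in number 1 and lower in number 2. For atp6ap1.1.L (Xl2.11114.1.A1_at) the signals were 17.0 and 8.1 with MCI-HGR and 20.8 and 8.3 with ICD alone, and the number 2 arrays of both groups were not above background.

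The beta subunit brings the Na,K-ATPase to the plasma membrane. Of 9 beta subunit probe sets 7 were tested, 0 passed, and the median log2 difference was 0.099 (-0.12 in number 1 and 0.18 in number 2). atp1b1.S (Xl2.6557.1.S1_at), of the widespread epithelial form, read 484.4 and 339.6 with MCI-HGR against 358.2 and 299.9 with ICD alone, 1.35-fold higher in number 1 and 1.13-fold in number 2 with overlapping groups (limma, adjusted p = 0.183 with the block). In contrast, atp1b2.L (Xl2.53667.1.S1_s_at) was lower, at 845.1 and 672.6 with MCI-HGR against 925.2 and 913.1 with ICD alone; the groups did not overlap, and the difference did not pass (limma, adjusted p = 0.120 with the block). Its brighter probe set Xl2.509.1.S1_at read 2203.8 and 2174.9 with MCI-HGR and 2390.5 and 2233.1 with ICD alone. atp1b3.S (Xl2.6045.1.S1_s_at) had 2697.5 and 2322.4 with MCI-HGR and 2802.3 and 1949.0 with ICD alone, and the groups overlapped (log2 difference 0.099 ± 0.23, SE, n = 2 per group). The only probe set of atp1b4.L was below background on all 4 arrays.

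Calcium pumps of the endoplasmic reticulum (atp2a), the plasma membrane (atp2b) and the Golgi (atp2c) gave 8 tested of 9 probe sets, with 0 passing and a median log2 difference of 0.017. The Golgi pump gene atp2c2.S (Xl2.56540.1.S1_at), whose mammalian counterpart is found in secretory epithelia, had 29.1 and 26.1 with MCI-HGR against 16.9 and 9.1 with ICD alone. Both arrays with MCI-HGR lay above both others, 1.72-fold in number 1. The ICD array of number 2 was not above its background of 10.0, so no fold is given there. The log2 difference of 1.15 ± 0.46 (SE, n = 2 per group), which takes that reading at its value, missed the threshold over all probe sets (limma, adjusted p = 0.0697 with the block and 1 without) and passed with 1 probe set per gene (adjusted p = 0.0406) and with 16 added to each signal before the log (adjusted p = 0.0364). The secretory cell markers were 3 symbols for 2 of 4 genes, all above background. They summed to 3484.9 and 3558.4 with MCI-HGR and 1421.8 and 2760.9 with ICD alone. The higher sums came mostly from grhl3.L and grhl3.S, which were higher in both numbers (limma, adjusted p = 0.00167 and 7.76e-06 with the block). The sums thus mostly followed grhl3 and cannot be read as a change in secretory cells. In contrast, itln1.L went opposite ways, at 227.0 and 992.8 with MCI-HGR against 164.9 and 1049.5 with ICD alone (limma, adjusted p = 0.534 with the block). The part of these markers in the atp2c2.S values was not tested.

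Readings of atp2a2.S, the broadly used pump of the endoplasmic reticulum, depended on the probe set. Xl2.45269.2.A1_at read 479.9 and 1168.2 with MCI-HGR and 435.0 and 1096.5 with ICD alone, 1.10-fold and 1.06-fold higher within the numbers (limma, adjusted p = 0.635 with the block). Xl2.54074.1.S1_at read 19.9 and 23.4 with MCI-HGR against 30.9 and 35.2 with ICD alone, without overlap and 1.53-fold lower by the group means (limma, adjusted p = 0.317 with the block). atp2a1.S (Xl2.2029.1.A1_at), of the form used in fast muscle in mammals, had 525.1 and 364.7 with MCI-HGR and 488.3 and 334.3 with ICD alone. Its other probe set, Xl2.11405.1.S1_a_at, was removed by the filter. That probe set was below background on every array, at 6.1 and 2.3 with MCI-HGR and 7.7 and 1.7 with ICD alone. The plasma membrane pump gene atp2b1.L (Xl2.48399.1.S1_s_at) had 317.7 and 201.8 with MCI-HGR and 337.7 and 181.2 with ICD alone, and atp2a3.L (Xl2.1572.1.S1_at) had 198.8 and 273.1 with MCI-HGR and 183.9 and 306.8 with ICD alone. For atp2a1.S, atp2b1.L and atp2a3.L the arrays of the groups overlapped, and the numbers differed more than the groups.

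Of the carbonic anhydrase probe sets 3 of the 4 tested were lower with MCI-HGR in both numbers (background 31.7%), and 0 passed. The 4 covered 3 gene symbols, and both probe sets of ca12.L were among those that were lower. The median log2 difference was -0.33, with -0.053 in number 1 and -0.40 in number 2. ca12 and ca14 encode enzymes anchored on the outer face of the membrane. ca14.L (Xl2.15860.1.S1_at) read 70.7 and 46.1 with MCI-HGR against 106.5 and 56.1 with ICD alone, 1.51-fold lower in number 1 and 1.22-fold lower in number 2 (limma, adjusted p = 0.312 with the block). Its direction turned when the ICD array of number 1 was left out, with a log2 difference of 0.025.

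ca12.L, an ionocyte marker, was lower in both of its probe sets. Xl2.10362.1.A1_at had 70.0 and 36.9 with MCI-HGR against 71.0 and 52.5 with ICD alone, and Xl2.10362.2.S1_at had 31.0 and 18.6 with MCI-HGR against 32.9 and 30.3 with ICD alone. In both, the number 1 arrays were nearly equal and the number 2 array with MCI-HGR was the lowest of the 4 (limma, adjusted p = 0.651 and 0.595 with the block). ca10.L (Xl2.48889.1.S1_at), of a form without catalytic activity in mammals, read 395.9 and 616.8 with MCI-HGR and 387.3 and 585.1 with ICD alone. The cytosolic enzyme gene ca2 was filtered out in both homeologs, with signals between 8.4 and 13.3, as were ca13.L, between 0.5 and 4.5, and the secreted form ca6.L, between 0.2 and 9.8.

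The gastric form of H,K-ATPase, the acid pump of the stomach, was not detected. All 3 probe sets of atp4a.S, atp4b.L and atp4b.S were below background on every array, with signals from 0.3 to 8.6, and were not tested. The gene of another H,K-ATPase form, atp12a.L (Xl2.2659.1.S1_at), lies outside the symbol rule and was above background on all arrays. It read 55.1 and 90.2 with MCI-HGR and 33.1 and 105.7 with ICD alone (limma, adjusted p = 0.689 with the block). In all, 13 of the 71 probe sets were removed by the filter, and 9 of the 50 symbols had no tested probe set.

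**Figure D3:**
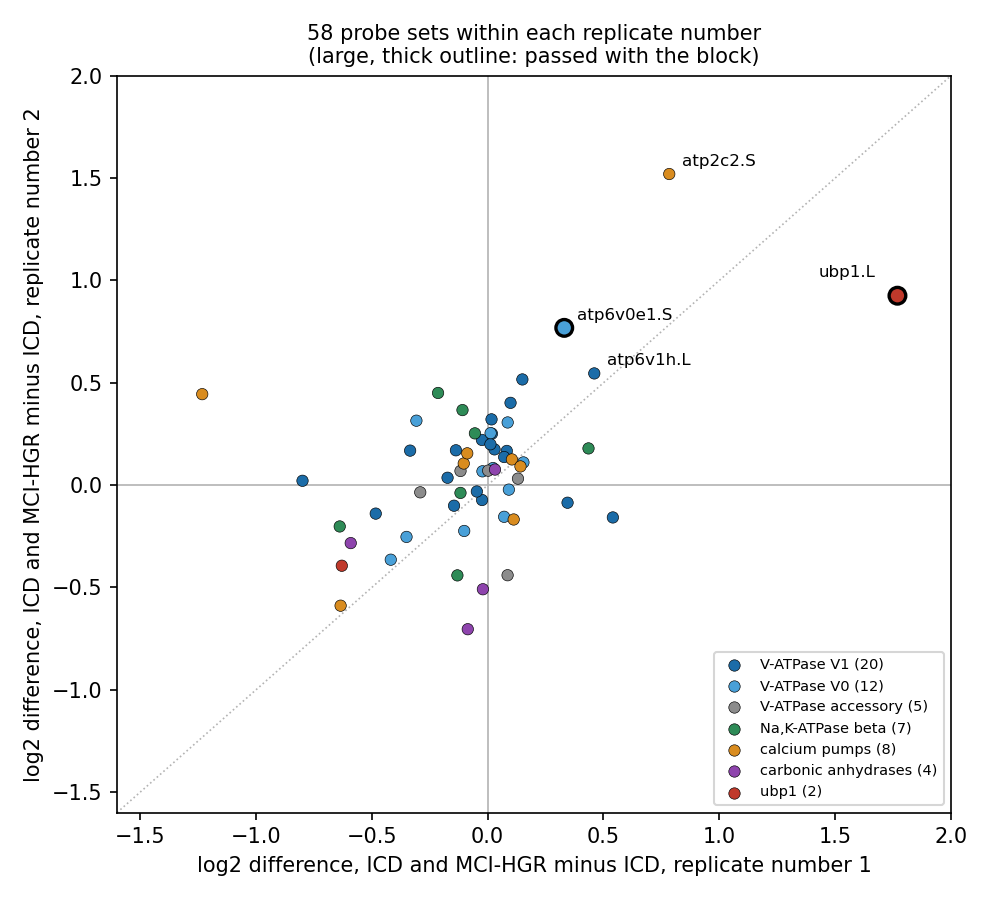
Log2 difference (ICD and MCI-HGR minus ICD) in replicate number 1 on the horizontal axis and in number 2 on the vertical axis for the 58 tested probe sets, coloured by role; the dotted line marks equal differences and thick outlines mark the 2 that passed with the block. Most points crowd around 0, while ubp1.L, atp2c2.S, atp6v0e1.S and atp6v1h.L lie apart at the upper right.

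Both homeologs could be tested for 7 genes, and the response of the .L copy was set against that of the .S copy on each array. By limma 0 of 7 pairs passed with or without the block, as did 0 of 1609 pairs on the whole array (a background of 0%). Of the 1609, 218 had an unadjusted p under 0.05 with the block (13.5%) and 39 without it (2.42%). The 95% intervals of the blocked fit were as wide as -0.70 to 1.34, for atp6v1f, so a like response of the homeologs was not shown. For atp6v0e1 the difference of the log2 differences, .L minus .S, was -0.42 with a 95% interval of -0.96 to 0.13 (limma, adjusted p = 0.472 with the block), so a different response of the homeologs was not shown. Near-identical homeologs can share probes, and whether they did here was not tested.

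Several probe sets were tested for 14 gene symbols. Their log2 differences spanned 0.030 to 0.32 for 12 of the genes, 0.73 for atp2a2.S and 1.86 for ubp1.L, whose dimmer probe set had readings below background. The span for ubp1.L contains the rise of its brighter probe set, 1.35, so a wide span and a large rise are not separate observations there.

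The replicate numbers separated the arrays for these genes about as they did for the whole array. The median absolute log2 difference between the numbers was 0.42 among the ICD and MCI-HGR arrays and 0.39 among the ICD arrays over the 58 probe sets, against 0.41 and 0.43 over all probe sets. That between the group means, each of 2 arrays and so not on the same footing, was 0.13 over the 58 and 0.17 over all. In both groups the number 2 array was lower than the number 1 array for 39 of 58 probe sets (67.2%), against 48.9% of all probe sets, and higher for 11 (19.0%), against 30.3%. The labels do not say what the replicate numbers mark.

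Differences by number were of similar size in both groups for several genes. atp2a2.S (Xl2.45269.2.A1_at) was 2.43-fold higher in number 2 than in number 1 among the ICD and MCI-HGR arrays and 2.52-fold among the ICD arrays. atp6v0d2.L in number 2 had 0.486 of its number 1 signal with MCI-HGR and 0.417 with ICD alone, and atp6v0a1.L was 2.02-fold and 1.94-fold higher in number 2. The mesoderm and muscle markers, 9 symbols with 5 above background on all arrays, also parted by number in their sums. These were 1077.3 and 188.8 with MCI-HGR and 1798.9 and 160.9 with ICD alone. Most of the number 1 signal was that of tbxt.L and tbxt.S, the latter at 930.4 and 12.0 with ICD alone. Not all members shared the direction: actc1.L read 41.2 and 65.8 with ICD alone, and myod1.L 22.9 and 38.5 with MCI-HGR. The neural markers, 8 symbols with 7 above background, summed to 6338.8 and 2913.3 with MCI-HGR and 6648.2 and 2201.4 with ICD alone. Most of this was sox2.L, sox3.L and sox3.S, while ncam1.L and ncam1.S were higher in number 2 in both groups. The part of these markers in the pump genes' differences by number was not tested.

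**Figure D4:**
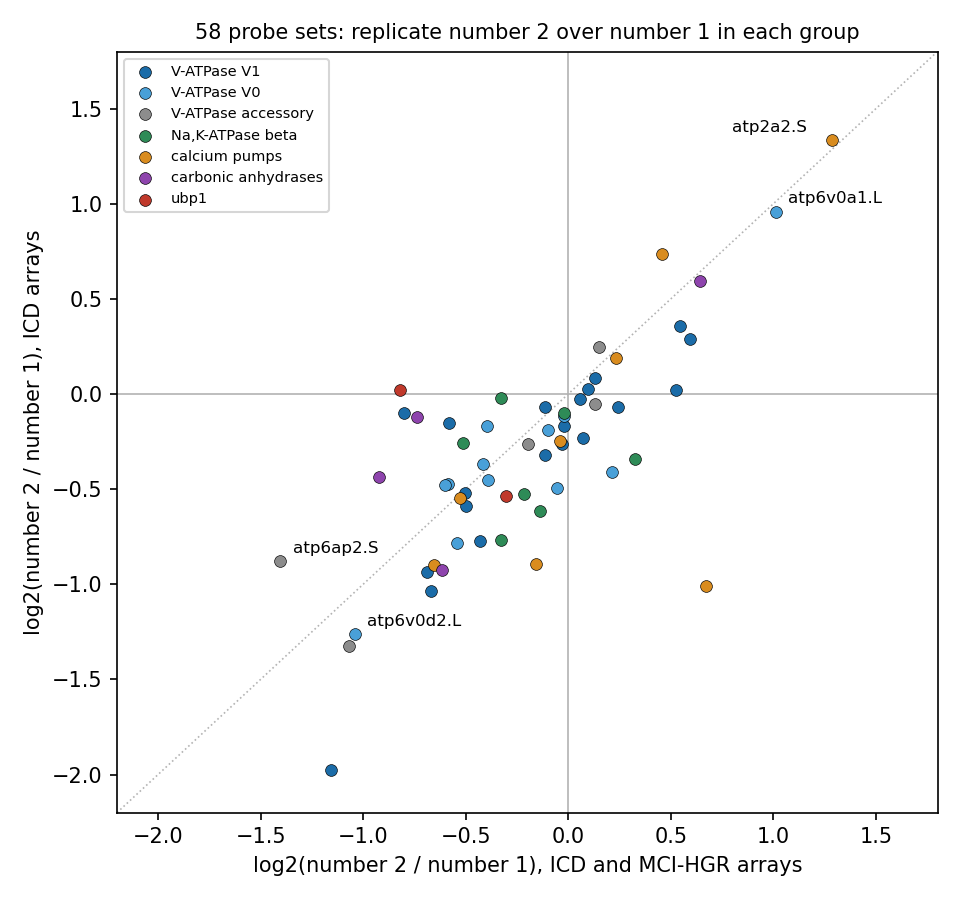
Log2 ratio of the number 2 signal to the number 1 signal among the ICD and MCI-HGR arrays (horizontal axis) and among the ICD arrays (vertical axis) for the 58 tested probe sets, coloured by role; the dotted line marks equal ratios. Points spread along that line, with atp6v0d2.L and atp6ap2.S at lower left and atp2a2.S at upper right, and 39 of 58 lie below 0 on both axes.

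Other genes of acid and ion transport and of ionocyte fate, a list that the symbol rule leaves out, gave 28 tested of 46 probe sets. With the block 0 rose (background 4.68%) and 1 fell (3.57%, background 2.26%), and the median log2 difference was 0.082. Without the block limma called 0 of 28, and 0 of them had an unadjusted p under 0.05. The one that fell was the forkhead factor gene foxi4.2.L (Xl2.139.2.S1_a_at), at 882.6 and 2189.9 with MCI-HGR against 1398.7 and 2816.0 with ICD alone. It was 1.43-fold lower by the group means, with groups that overlapped (limma, adjusted p = 7.24e-04 with the block and 1 without). None of the 4 probe sets of its homeolog foxi4.2.S passed. Of these, Xl2.55063.1.A1_s_at, Xl2.9899.1.A1_at and Xl2.9899.1.A1_x_at were higher in both numbers, with log2 differences of 0.11, 0.17 and 0.16. Xl2.5369.1.S1_at was lower in both, with -0.052. The fall was thus read for the .L copy only. foxi1.L (Xl2.20089.1.S2_at), of a gene named above among regulators of ionocyte fate, read 104.2 and 45.4 with MCI-HGR against 24.1 and 71.0 with ICD alone. It was 4.32-fold higher in number 1 and 1.56-fold lower in number 2, and did not pass (limma, adjusted p = 0.414 with the block). The anion exchanger gene slc4a1.L (Xl2.13563.1.S1_at), which exports bicarbonate from ionocytes, had 52.8 and 116.3 with MCI-HGR and 42.4 and 81.9 with ICD alone, higher in both numbers and short of the threshold (limma, adjusted p = 0.340 with the block). The V-ATPase assembly gene vma21.L (Xl2.5315.1.S1_at) read 1271.0 and 1165.8 with MCI-HGR against 1137.1 and 1052.9 with ICD alone, without overlap at a 1.11-fold difference (limma, adjusted p = 0.407 with the block).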

How the data were processed

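The deposited files give a linear signal intensity for each probe set, made by the authors with MAS5 per the submitters' processing notes, which name no version; the scaling target is unknown here. After 96 control probe sets were set aside, signals were put on the log2 scale, and the dimmest 25% of probe sets (mean signal under about 10.6) were dropped, leaving 24404. Symbols came from the platform annotation: 15495 probe sets had 1, 279 several and 16765 none; all 71 members matched a RefSeq gene by identifier (assembly v10.1, used for names only).

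The group difference was fitted by limma 3.58.1 under R 4.3.3, using lmFit and eBayes with an intensity trend; p-values are two-sided, and calls use a Benjamini-Hochberg threshold of 0.05 across every probe set kept. The design without a block had 2 residual degrees of freedom. The blocked fit, with replicate number as a term, had 1, with 15.1 prior degrees of freedom; it is printed because the genes were to be compared within each number. Deviations of same-numbered arrays from their group means correlated at 0.745 over the kept probe sets. The labels do not tell whether replicates are separate clutches; the p-values rest on the spread between these samples, which may be technical. The SE printed is that of the fit without the block; 95% intervals come from the blocked fit. A smaller exact permutation p than 0.333 cannot be had with 2 arrays per group.

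Genes were named by rule: probe sets that passed with or without the block, all others of those symbols, and in each role group the 2 with the smallest p and the one of highest mean signal; other genes were named for their role or after their values were seen. Members and lists were chosen with earlier results of these data known. The use of tag controls for background was decided after seeing the data. The fits were tested on simulated data. Alternatives were quantile normalization, median centring, other filters, an offset of 16, the brightest probe set per gene, no intensity trend and leaving out each array.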

Additional observations from a re-analysis of the deposited data

How the results depend on the processing

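Without a block, the counts of 0 for the 58 member probe sets, for the 28 of the other ion transport list and for the 7 homeolog pairs were also 0 under quantile normalization, median centring, no filter, a filter at 50%, an offset of 16, no intensity trend and each array left out. Over all probe sets that count was 0 to 126 with 1 array left out, 126 without ICD replicate 1 and 82 without ICD replicate 2. With the replicate number as a block, 2 members were called; 2 with quantile normalization (ubp1.L higher and atp6v1al.L lower), 2 with median centring, 2 without a filter, 1 with the lowest 50% left out, where ubp1.L was not tested, 4 with an offset of 16, 4 with the brightest probe set per gene and 0 without the intensity trend. In the same order of blocked settings the whole array gave 1693, 1508, 1554, 1600, 1508, 1979, 941 and 0 calls, and the other ion transport list 1 in each and 0 without the trend. The settings that join the block with anything but quantile normalization were chosen after seeing the data. The members' median log2 difference ran from -0.12 to 0.13 with 1 array left out and was -0.0093 after quantile normalization. Directions of small differences turned: atp6ap2.L to -0.017 and atp6v0c.L to -0.0019 after quantile normalization, with or without the block. With 1 array left out, log2 differences ran from -0.83 to 0.50 for atp6ap1.1.L, -0.096 to 0.17 for atp6ap2.L, -0.88 to 0.53 for atp6ap2.S, -0.55 to 0.78 for atp2a2.S, -0.27 to 0.37 for ca10.L, -0.90 to 0.025 for ca14.L, -0.16 to 0.36 for atp1b3.S, -0.17 to 0.28 for atp6v0c.L and -0.70 to 0.077 for atp6v1al.L. The cause was not tested. Signal near background limits ubp1.L, atp2c2.S, atp6v1b1.L, atp6v1g3.L and atp6v0a4.L.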
